A study of Mus musculus with 8 samples.

Results

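The genes described are those of extracellular Wnt signalling: the Wnt ligands, their Frizzled receptors, the secreted inhibitors of the Sfrp and Dkk families with Wif1, the co-receptors Lrp5 and Lrp6, the R-spondins Rspo1, Rspo2 and Rspo3, and Axin2 and Lef1. They were chosen by symbol, as every gene named Wnt, Fzd, Sfrp or Dkk with a number plus those 8 named genes, which gave 45 of the 49671 genes in the count table. There were 19 Wnt ligands, 10 Frizzled receptors, 4 Sfrp genes and 4 Dkk genes. RNA came from the back skin, shaved and taken whole, of mice aged 8 weeks, with 4 libraries labelled Flg wt/wt (wild type) and 4 labelled Flg ko/ko (knockout). Flg encodes profilaggrin, the precursor of filaggrin in the outer epidermis. The labels name no treatment of either group. The sources name no allele, strain or sex and do not say whether each library was 1 mouse, so p-values measure the spread between these samples.

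Wnt proteins are secreted, lipid-modified signals. They bind a Frizzled receptor together with Lrp5 or Lrp6, which stabilises beta-catenin, and beta-catenin then acts with factors of the TCF and LEF family, Lef1 among them, on target genes such as Axin2. R-spondins raise the amount of receptor at the cell surface, Sfrp proteins and Wif1 bind the ligands, and Dkk1, Dkk2 and Dkk4 block the co-receptors, while Dkk3 is a divergent relative whose part in the pathway is less clear. In skin the pathway starts the growth phase of the hair follicle, and the follicle passes through growth, regression and rest in a cycle that also changes the fat layer beneath it.

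Library totals lay between 18483242 and 38545957 counts, and levels are given as CPM, counts scaled to a common library size with a correction for composition. Flg was lower in every knockout library, with means of 59.0 ± 9.77 CPM for wild type against 24.5 ± 1.97 CPM for knockout (SD, n = 4 each), a log2 fold change of -1.27 ± 0.12 (edgeR adjusted p = 0.00326). The keratins Krt5, Krt14, Krt1 and Krt10 and the collagens Col1a1 and Col3a1 were each at 917 CPM or more in both groups, so the defining genes of epidermis and dermis were present. No pair of replicates agreed within counting noise: knockout replicates 2 and 4 were the closest pair, with a chi-square per degree of freedom of 5.46. Wild-type replicates 1 and 4 stood apart on the first principal component, at -43.9 and -38.7 against -3.0 or higher in the other 6 libraries. Knockout replicate 4 stood apart in genes of the inner root sheath, as described with the hair cycle. Values without wild-type replicates 1 and 4 are given beside several of the genes that their absence moved. Lef1, Rspo2, Wnt6 and Fzd8, none of them called, turned from below to above 0 when both were left out.

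In knockout skin 2 of the secreted inhibitor genes, Dkk3 and Dkk2, fell, and no ligand, receptor, R-spondin, Axin2 or Lef1 passed the test. Of the 45 genes, 40 had enough reads to be tested, which was by edgeR's quasi-likelihood test over 19099 genes with a call at a Benjamini-Hochberg adjusted p under 0.05. The test called 0 of them higher and 2 lower, against 1.41% of all genes called in either direction, 0.712% higher and 0.702% lower. At an unadjusted p under 0.05 there were 3 higher and 9 lower (30% together), where all genes gave 8.64% higher, 10.9% lower and 19.5% in either direction. The median log2 fold change, knockout over wild type, was -0.06 over the 40 genes and -0.02 over all genes. Of the 40 genes 12 were above 0 and 28 below, and of all 19099 genes 8918 were above and 10181 below. DESeq2 called 1 gene higher and 5 lower, and limma voom with quality weights 1 higher and 7 lower, where they called 6.2% and 13.3% of all genes. CPM did not overlap between the genotypes in 5 of the 40 genes (12.5%), against 11.5% of all genes. Of these 5, Wnt9b was higher in knockout, where all genes gave 5.57%, and Dkk2, Dkk3, Fzd6 and Fzd7 were lower, where all genes gave 5.95%. In whole skin, fewer cells of a type and less RNA per cell cannot be told apart.

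**Figure D1:**
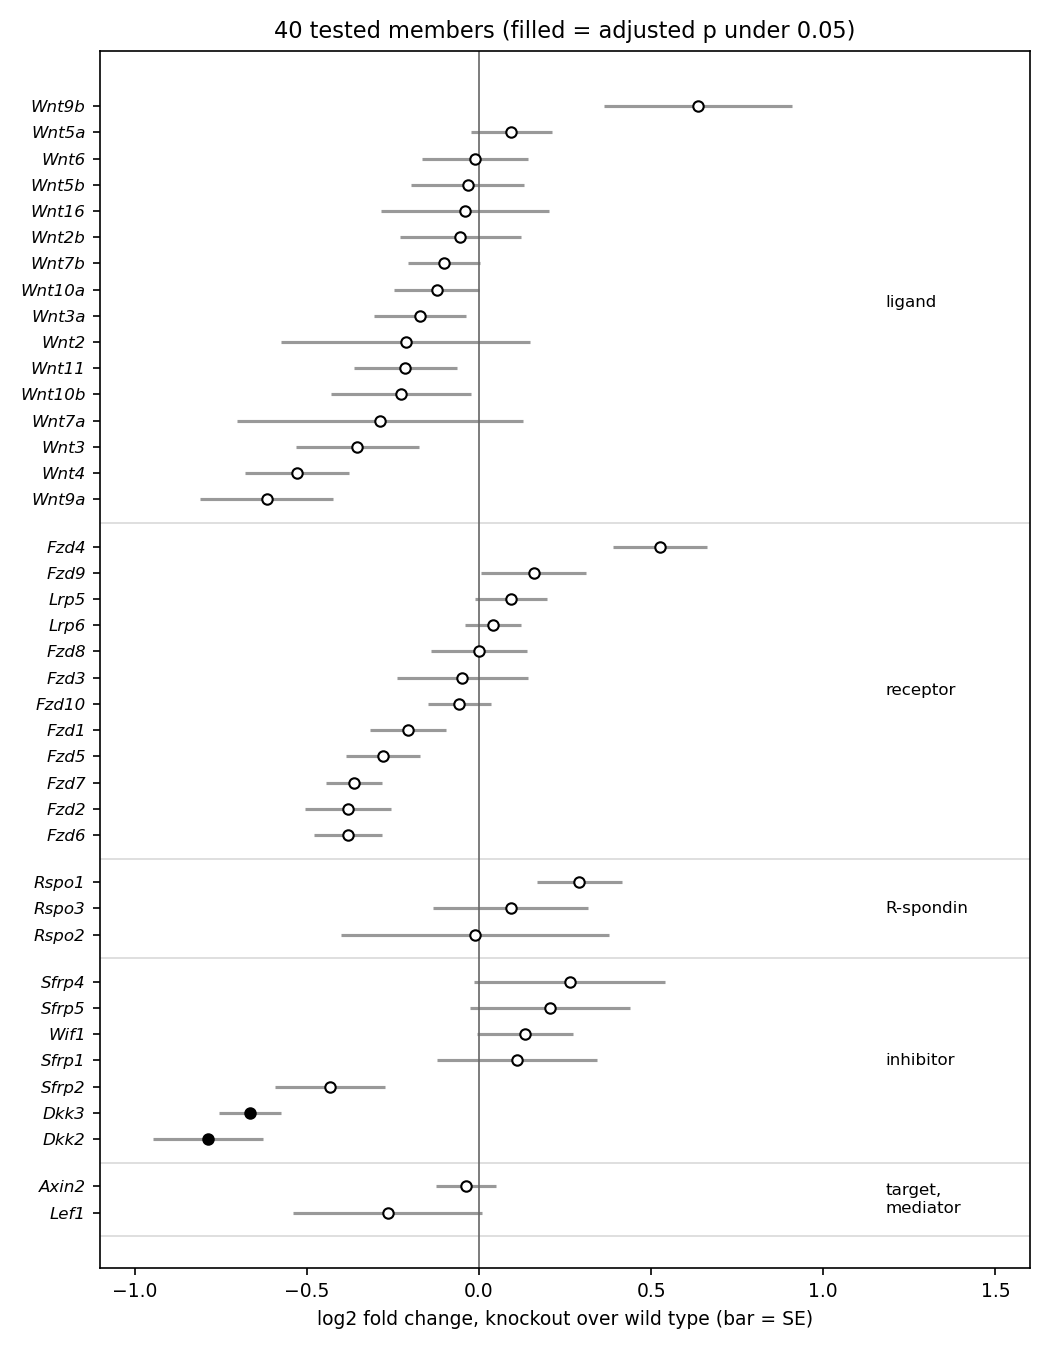
Log2 fold change, knockout over wild type (x axis), of the 40 tested genes, grouped by role on the y axis, with the SE as a bar and filled points for an adjusted p under 0.05. Dkk3 and Dkk2 are the filled points, and 28 of the 40 points lie below 0.

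Dkk3 (ENSMUSG00000030772, chromosome 7, positions 112116017 to 112159057 on the minus strand, mm10) stood at 98.7, 82.9, 105.4 and 90.9 CPM in wild-type replicates 1 to 4. In knockout replicates 1 to 4 it stood at 64.2, 54.6, 61.1 and 58.4 CPM. Every knockout library lay below every wild-type library. The group levels were 94.5 ± 9.76 and 59.6 ± 4.07 CPM (SD, n = 4 each), a log2 fold change of -0.66 ± 0.09 (SE, edgeR adjusted p = 0.0151). Without knockout replicate 2 or 4 the call was lost (adjusted p = 0.0663 and 0.0676) at log2 fold changes of -0.62 and -0.65. These 2 libraries were the closest pair of replicates. The fits without replicate 2 or 4 called 0.0566% and 0.0775% of all genes, against 1.41% in the main comparison.

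Dkk2 (ENSMUSG00000028031, chromosome 3, positions 132085292 to 132180304 on the plus strand), which encodes a secreted protein that binds the Lrp co-receptors, stood at 71.0, 58.8, 78.8 and 71.1 CPM in wild type. It stood at 55.3, 33.8, 39.2 and 33.4 CPM in knockout. The groups did not overlap, but knockout replicate 1 came close to wild-type replicate 2. The means were 69.9 ± 8.25 and 40.4 ± 10.2 CPM (SD, n = 4 each), a log2 fold change of -0.79 ± 0.16 (SE, edgeR adjusted p = 0.0465). The call was lost without any one of wild-type replicates 1 and 4 and knockout replicates 2, 3 and 4, with adjusted p between 0.093 and 0.147. Those fits called 0.0566% to 0.663% of all genes, against 1.41% in the main comparison. The call was also lost with DESeq2 size factors (adjusted p = 0.0507). The log2 fold change lay between -0.98 and -0.70 with any one library left out. Dkk2 is on the same chromosome as Flg, 38.8 Mb away. The other 3 of the 45 genes on that chromosome were Sfrp2 at 9.5 Mb, Wnt2b at 11.7 Mb and Lef1 at 37.8 Mb, with log2 fold changes of -0.43, -0.05 and -0.26, none past the test.

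Within wild type both Dkk2 and Dkk3 were highest in replicate 3 and lowest in replicate 2. Together they made up 33.0 ± 6.15% of the summed level per kb of exons of the 9 inhibitor genes in wild type and 21.2 ± 3.87% in knockout (SD, n = 4 each). Dkk1 and Dkk4, the other 2 members of the family, had at most 3 reads in any library and were not tested. A count of 0 allows a level of up to 3 reads, which is 0.0778 to 0.162 CPM in these libraries and covers counting error only.

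**Figure D2:**
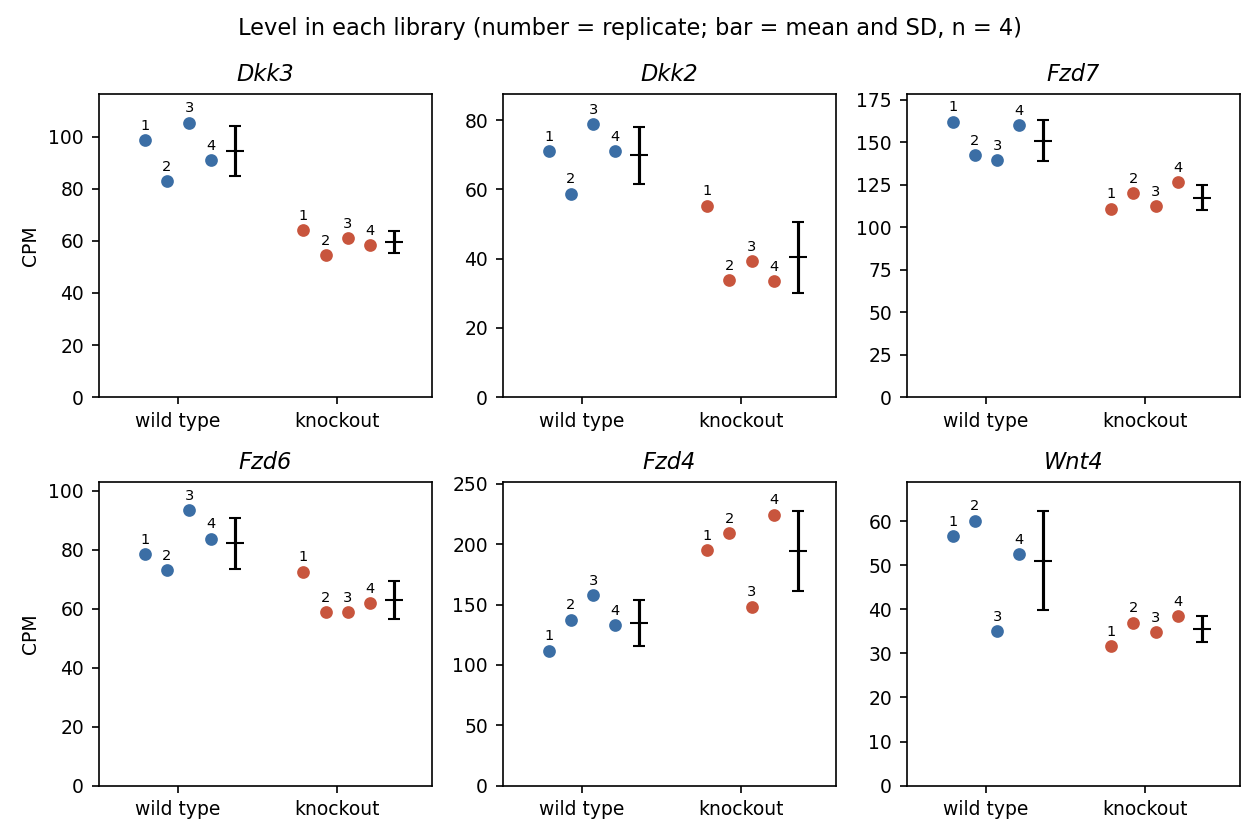
CPM (y axis) of 6 genes in each library by genotype (x axis), with replicate numbers above the points and the mean with its SD (n = 4) as a bar. Dkk3, Dkk2, Fzd7 and Fzd6 do not overlap between genotypes, while Fzd4 overlaps through wild-type replicate 3 and knockout replicate 3, and Wnt4 through wild-type replicate 3.

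Promoters were read for the letters CTTTGA, 1 form of the core of the TCF and LEF binding site. The form CTTTGT was not searched. RefSeq's promoter table (GRCm38.p6, the assembly that mm10 names) held 35 promoters for 29 of the 45 genes, and only the 250 bases before each start site were searched. Dkk2 and Fzd7, shown whole because every knockout library was lower in both, lie on the plus strand of chromosome 3 (positions 132085042 to 132085291) and chromosome 1 (positions 59481897 to 59482146), and had no match to CTTTGA on either strand. The 2 short stretches after them show matches in Fzd1, on the minus strand of chromosome 5 (positions 4758426 to 4758466), and Wnt11, on the plus strand of chromosome 7 (positions 98835035 to 98835094). Capitals mark the match, here as its reverse complement TCAAAG. The Dkk2 stretch does hold CTTTGT and the Fzd7 stretch its reverse complement ACAAAG, which are not marked.
Dkk2: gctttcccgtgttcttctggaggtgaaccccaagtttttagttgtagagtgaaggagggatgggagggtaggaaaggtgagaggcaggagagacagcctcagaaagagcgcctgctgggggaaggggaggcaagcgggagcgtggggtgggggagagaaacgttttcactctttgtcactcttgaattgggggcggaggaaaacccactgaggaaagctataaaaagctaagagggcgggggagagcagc
Fzd7: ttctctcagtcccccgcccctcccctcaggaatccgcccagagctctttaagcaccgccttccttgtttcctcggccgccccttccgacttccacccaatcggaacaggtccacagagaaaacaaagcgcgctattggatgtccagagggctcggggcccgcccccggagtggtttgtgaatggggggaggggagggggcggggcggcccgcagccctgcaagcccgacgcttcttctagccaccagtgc
Fzd1: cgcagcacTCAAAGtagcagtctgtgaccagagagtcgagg
Wnt11: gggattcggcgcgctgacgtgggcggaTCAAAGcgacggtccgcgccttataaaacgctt

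A match was held by 5 of the 35 promoters (14.3%), against 13.8% of all 32851 promoters of the table searched over the same length. The other 3 were a promoter each of Lef1, Wnt5b and Dkk1, and the Axin2 promoter held none. A match is a description of letters in this window and was not tied to binding here. No match to CTTTGA does not mean that a promoter lacks a TCF and LEF site.

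Among the inhibitors that bind the ligands, Sfrp4 had the most transcript per length, with a median of 58.1 CPM per kb over the 8 libraries, and was first among the 9 inhibitor genes in 7 of them. Wild-type libraries held 84.2, 116.7, 51.5 and 98.9 CPM and knockout libraries 65.7, 105, 143.7 and 107.8 CPM. The groups overlapped widely, the lowest value being wild-type replicate 3 and the highest knockout replicate 3 (log2 fold change 0.26 ± 0.28, adjusted p = 0.632). Sfrp1, another secreted protein that binds the ligands, stood at 118, 68.2, 86.8 and 148.9 CPM in wild type and 149.4, 109.6, 96.8 and 100.1 CPM in knockout. It overlapped as well, at 0.11 ± 0.23 (adjusted p = 0.826).

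Sfrp2 was at 19.4, 21.1, 27.6 and 25.7 CPM in wild type and 13.4, 16.9, 21.9 and 17.4 CPM in knockout. Only knockout replicate 3 reached into the wild-type range, and the log2 fold change of -0.43 ± 0.16 did not pass (adjusted p = 0.181). Wif1, a secreted protein that binds Wnt proteins, stood at 19.3, 16.4, 17.2 and 16.5 CPM in wild type and at 22.9, 18.1, 14.4 and 20.5 CPM in knockout. Its log2 fold change was 0.13 ± 0.14 (adjusted p = 0.625), and Sfrp5 stood at 0.21 ± 0.23 (adjusted p = 0.651). Sfrp5 was at 0.50 without wild-type replicate 1 and 0.05 without wild-type replicate 2, and Wif1 at 0.03 without knockout replicate 1. The 4 Sfrp genes gave 3 fitted values above 0 and 1 below, and none passed. Without wild-type replicates 1 and 4, Sfrp1 was at 0.56 (adjusted p = 0.181) and Sfrp5 at 0.57 (adjusted p = 0.155). Sfrp1 was at -0.05 when either wild-type replicate 2 or knockout replicate 1 was left out. Sfrp4 was at 0.08 when replicate 3 of either genotype was left out.

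**Figure D3:**
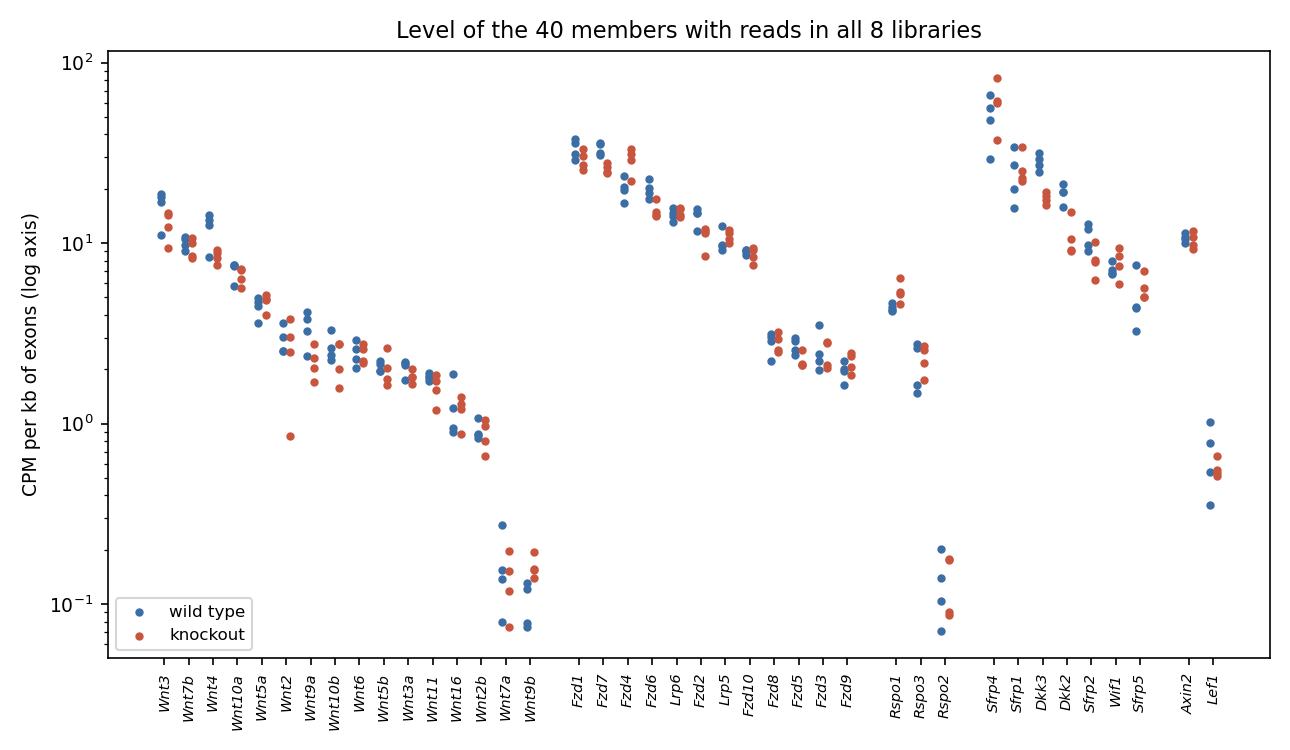
CPM per kb of exons (y axis, log scale) in each of the 8 libraries for the 40 genes with reads in all of them, grouped from left to right as ligands, receptors, R-spondins, inhibitors and Axin2 with Lef1. Wnt3, Fzd1, Rspo1, Sfrp4 and Axin2 have the highest median of their groups.

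Among the ligands, Wnt3, Wnt4, Wnt7b, Wnt10a and Wnt5a made up between 65.4% and 73.6% of the summed level per kb of all 19 Wnt genes in each library. Wnt3, a canonical ligand of the epidermis and hair, was first in 8 of 8 libraries, with a median of 14.5 CPM per kb. Wild-type libraries held 57.5, 52.1, 34.3 and 55.1 CPM of it and knockout libraries 29.0, 44.1, 37.9 and 45.1 CPM. Wild-type replicate 3 lay inside the knockout range, and the other 3 wild-type libraries lay above it. The log2 fold change was -0.35 ± 0.18 (adjusted p = 0.307), and -0.15 without wild-type replicates 1 and 4.

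Wnt4, another ligand of the epidermis, had the same arrangement, at 56.6, 60.1, 35.0 and 52.6 CPM in wild type and 31.6, 37.0, 34.8 and 38.4 CPM in knockout. Its log2 fold change was -0.53 ± 0.15 with an edgeR adjusted p of 0.104. Without wild-type replicate 3 it was -0.67 with an adjusted p of 0.00642, and Wnt4 then passed as lower. That fit called 6.82% of all genes, against 1.41% in the main comparison. Adding the mean of a list of adipocyte genes to the fit gave -0.04 ± 0.20 (adjusted p = 0.973) for Wnt4 and 0.08 ± 0.28 (adjusted p = 0.958) for Wnt3. That fit called 0 of all 19099 genes, Flg included, and the part of fat in the Wnt4 and Wnt3 values was not tested.

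Wnt7b stood at 47.7, 46.5, 40.1 and 42.9 CPM in wild type and 37.3, 47.3, 36.5 and 44.4 CPM in knockout, with no separation (log2 fold change -0.10 ± 0.10, adjusted p = 0.624). Wnt10a, a ligand needed for hair, teeth and sweat glands, was at 18.8, 18.5, 14.3 and 18.8 CPM in wild type and 15.6, 17.4, 13.9 and 17.8 CPM in knockout. Its log2 fold change was -0.12 ± 0.12 (adjusted p = 0.612). Wnt5a, the main ligand of the beta-catenin-independent branch, stood at 0.09 ± 0.12 (adjusted p = 0.693). Wild-type replicate 3 was the lowest wild-type library for 8 of the 16 tested ligands, Wnt3, Wnt4, Wnt7b, Wnt10a and Wnt5a included.

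Wnt9a was at 13.8, 7.87, 12.7 and 10.9 CPM in wild type and 7.74, 5.67, 9.21 and 6.81 CPM in knockout. The groups overlapped through wild-type replicate 2 and knockout replicate 3, and the log2 fold change was -0.62 ± 0.19 (adjusted p = 0.129). Without wild-type replicate 2 it passed as lower (adjusted p = 0.048), in a fit that called 2.6% of all genes. Wnt9b was the only ligand with every knockout library above every wild-type library, and it was read at a low level of 19, 9, 8 and 15 counts in wild type and 24, 13, 21 and 19 in knockout. That gave 0.549, 0.356, 0.337 and 0.594 CPM against 0.632, 0.696, 0.875 and 0.711 CPM, a log2 fold change of 0.64 ± 0.27 that did not pass (adjusted p = 0.235). Without wild-type replicates 1 and 4 it was 1.05, and it did not pass there either.

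The remaining tested ligands, Wnt2, Wnt2b, Wnt3a, Wnt5b, Wnt6, Wnt7a, Wnt10b, Wnt11 and Wnt16, had fitted values between -0.29 and -0.01 and none passed. Wnt5b is overlapped on the opposite strand by Fbxl14, which had 7014 counts over all libraries against 1171 for Wnt5b. The strand setting of the counting is not given, and whether the overlap affects the Wnt5b count was not tested. Over all 16 ligands the fitted value was below 0 in 14, with a median of -0.15, while 10181 of all 19099 genes were below 0. The sign changed under at least 1 alternative for Wnt2, Wnt2b, Wnt3, Wnt5b, Wnt6, Wnt7a, Wnt10a and Wnt16. Wnt2 showed 1 library far below the rest, at 1.92 CPM in knockout replicate 1 against 5.65 to 8.58 CPM in the other 7. Wnt1, Wnt8a and Wnt8b had at most 4 reads in any library and were not tested.

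The ligand genes lie partly in pairs: Wnt6 with Wnt10a, Wnt3a with Wnt9a, Wnt9b with Wnt3, and Wnt10b with Wnt1, with 6.2 to 24.3 kb between the partners. On chromosome 11, Wnt9b (positions 103727364 to 103749821, minus strand) and Wnt3 (positions 103774150 to 103817957, plus strand) had fitted values of opposite sign, 0.64 and -0.35, neither past the test. Wnt3a and Wnt9a on the same chromosome stood at -0.17 and -0.62. The difference within a pair was not tested.

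Among the receptors, Fzd1, Fzd7 and Fzd4 had the most transcript per length, with medians of 30.8, 29.4 and 22.8 CPM per kb, and their ranges over libraries overlapped. Fzd7, a receptor with a known part in canonical signalling, was at 162.3, 142.4, 139.4 and 160.2 CPM in wild type and 111.0, 120.1, 112.4 and 126.7 CPM in knockout. The groups did not overlap, and the log2 fold change of -0.36 ± 0.08 missed the threshold (adjusted p = 0.0562). It passed as lower without wild-type replicate 2 or 3 (adjusted p = 0.0439 and 0.023) and with upper quartile scaling (adjusted p = 0.0465). These fits called 2.6%, 6.82% and 1.65% of all genes, against 1.41% in the main comparison.

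Fzd6, which works in the planar polarity of hair follicles, was at 78.3, 72.9, 93.4 and 83.7 CPM in wild type and 72.5, 58.9, 58.7 and 61.8 CPM in knockout. The highest knockout value lay just below the lowest wild-type value, and the log2 fold change was -0.38 ± 0.10 (adjusted p = 0.0825). Fzd2 was at 56.9, 42.7, 53.9 and 53.9 CPM in wild type and 42.9, 41.7, 31.2 and 43.6 CPM in knockout, overlapping through wild-type replicate 2. Its log2 fold change was -0.38 ± 0.12 (adjusted p = 0.143). Fzd1 was at 159, 121, 131 and 150 CPM in wild type and 139, 114, 107 and 127 CPM in knockout, at -0.21 ± 0.11 (adjusted p = 0.333), and at -0.05 without wild-type replicates 1 and 4.

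Fzd4, also the receptor of Norrin in blood vessels, was the receptor with the most positive fitted value. It stood at 111.7, 137.4, 157.6 and 132.7 CPM in wild type and at 195.1, 209.2, 148.2 and 224.2 CPM in knockout. The groups overlapped through wild-type replicate 3 and knockout replicate 3, and the log2 fold change was 0.53 ± 0.14 (adjusted p = 0.0829). It passed as higher without wild-type replicate 3 (0.62, adjusted p = 0.0359) or knockout replicate 3 (0.64, adjusted p = 0.0484). These fits called 6.82% and 0.663% of all genes. With the adipocyte mean in the fit, which then called 0 of all genes, Fzd4 was at 0.18 ± 0.19 (adjusted p = 0.792). As a share of the summed level per kb of the 10 Frizzled genes, Fzd4 held 14.4 ± 2.27% in wild type and 22.4 ± 2.17% in knockout (SD, n = 4 each). The lowest knockout share was 19.8% and the highest wild-type share 16.6%, so the shares did not overlap, while Fzd4 CPM did. The lowest knockout share was that of replicate 3, where the summed CPM of the 10 Frizzled genes was 518.2, against 592.9 or more in every other library.

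The other 5 Frizzled genes, Fzd3, Fzd5, Fzd8, Fzd9 and Fzd10, lay between -0.28 and 0.16, and none passed. The co-receptors stood at 0.04 ± 0.08 for Lrp6 (adjusted p = 0.811) and 0.09 ± 0.10 for Lrp5 (adjusted p = 0.653). Lrp6 lay between 178.6 and 215.1 CPM over the 8 libraries and Lrp5 between 89.0 and 121.7 CPM.

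Of the R-spondins, Rspo1 had the highest level per length in 8 of 8 libraries. It was at 8.23, 8.18, 9.06 and 8.63 CPM in wild type and 8.87, 10.3, 12.4 and 10.2 CPM in knockout, where only knockout replicate 1 lay inside the wild-type range. The log2 fold change was 0.29 ± 0.12 (adjusted p = 0.232). Rspo3, at 8.15, 5.06, 4.55 and 8.55 CPM in wild type and 5.42, 8.30, 7.87 and 6.70 CPM in knockout, gave 0.09 ± 0.23 (adjusted p = 0.85). Rspo3 was at 0.55 (adjusted p = 0.185) without wild-type replicates 1 and 4, which were high in it, and at -0.04 without wild-type replicate 3. Rspo2 had 6 to 17 counts in each library and gave -0.01 ± 0.39 (adjusted p = 0.991).

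Axin2, a feedback target of the pathway and often used as its readout, was at 59.6, 58.0, 62.4 and 55.1 CPM in wild type and 64.3, 54.0, 51.2 and 59.3 CPM in knockout. The groups overlapped almost fully, at 58.8 ± 3.07 and 57.2 ± 5.83 CPM (SD, n = 4 each). The log2 fold change was -0.04 ± 0.09 (adjusted p = 0.841). Lef1, the partner of beta-catenin that is high in hair matrix and hair germ, was at 8.98, 3.12, 4.76 and 6.85 CPM in wild type and 4.87, 4.66, 4.50 and 5.80 CPM in knockout. Wild-type replicates 1 and 4 were the 2 highest libraries and wild-type replicate 2 the lowest, so that all knockout values lay inside the wild-type range (log2 fold change -0.26 ± 0.27, adjusted p = 0.625). The sign of the Lef1 value depended on those 2 libraries: it was 0.01 without wild-type replicate 1, 0.34 (adjusted p = 0.433) without wild-type replicates 1 and 4, and 0.06 with the mean of the hair shaft list in the fit.

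Of 55 other tested genes of Wnt signalling, from secretion to target genes, 0 were called by edgeR. At an unadjusted p under 0.05 there were 5 higher and 8 lower, where all genes gave 8.64% higher and 10.9% lower. DESeq2 called 4 of the 55 and limma voom 10, where they called 6.2% and 13.3% of all genes. The median log2 fold change of the 55 was -0.01, with 25 above and 30 below 0. The 4 with the smallest p were Vangl2, a planar polarity gene, at -0.36 ± 0.08 (adjusted p = 0.0578), the stem cell receptor gene Lgr5 at -0.61 ± 0.14 (adjusted p = 0.0636), Rspo4 at -0.72 ± 0.18 (adjusted p = 0.0722) and the inhibitor gene Apcdd1 at 0.51 ± 0.14 (adjusted p = 0.099). Lgr5, which encodes an R-spondin receptor, was at 27.7, 35.1, 31.7 and 31.1 CPM in wild type and 23.5, 20.4, 15.04 and 23.5 CPM in knockout, with no overlap. Vangl2, at 52.1 to 58.1 CPM in wild type and 40.1 to 48.0 CPM in knockout, and Rspo4, at 3.56 to 4.74 CPM and 2.08 to 2.99 CPM, did not overlap either. Apcdd1 was at 133.9 to 206.7 CPM and 192.1 to 253.9 CPM and overlapped through wild-type replicate 3. Of the 55, every knockout library was higher in 3 and lower in 5, where all genes gave 5.57% and 5.95%.

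The hair cycle state was read from lists of genes of growing and resting follicles. The 20 matched genes of hair matrix and shaft summed to 56.8 to 69.6 CPM in wild type and 55.9 to 59.8 CPM in knockout. The 11 genes of the inner root sheath list summed to 209.6 to 311.2 CPM in wild type and 214.0 to 306.0 CPM in knockout, of which Gata3, a gene that the epidermis also expresses, made up 184.0 to 279.8 CPM. Of 17 tested genes of matrix, shaft and inner root sheath, 0 were called by edgeR. At an unadjusted p under 0.05 there were 0 higher and 3 lower, where all genes gave 8.64% higher and 10.9% lower. DESeq2 called 0 of the 17 and limma voom 2, where they called 6.2% and 13.3% of all genes. Krt31, Krt33a, Krt33b, Krt34, Krt81, Krt82, Krt83, Krt86 and Shh failed the filter on low counts and were not tested. The same held for Krt25, Krt26, Krt72, Krt73 and Krt74 of the inner root sheath list, so the counts do not cover these genes. The shaft keratin genes Krt81 and Krt86 were at or below 0.262 CPM in every library.

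One library departed from this in the inner root sheath, the layer that encloses the growing shaft. In knockout replicate 4, Krt71 was at 23.0 CPM against at most 0.91 CPM in the other 7 libraries, and Krt25 at 13.6 CPM against at most 0.317 CPM, both named after their values were seen. Lef1 in that library was the highest of knockout at 5.80 CPM and below wild-type replicates 1 and 4.

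Wild-type replicates 1 and 4, highest in Lef1, were also highest in the hair matrix factor gene Hoxc13, at 20.6 and 19.7 CPM against 8.75 to 12.5 CPM in the other 6 libraries. The same 2 were highest in Sox9, a gene of bulge and outer root sheath, at 173 and 182 CPM against 64.9 to 118 CPM. Hoxc13 and Sox9 were chosen after their values were seen. With these 2 libraries left out, Dkk3 remained called at -0.66 (edgeR adjusted p = 0.0251), while Dkk2 was at -0.76 (adjusted p = 0.138). With the mean of the shaft list as a covariate, Dkk3 was at -0.64 (adjusted p = 0.0122) and Dkk2 at -0.77 (adjusted p = 0.0532).

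Genes of the hair germ and bulge, the stem cell compartment kept through rest, were below 0 in 13 of 16, with 1 called lower and a median of -0.20. At an unadjusted p under 0.05 there were 1 higher and 7 lower. For this list and those after it, all genes gave 8.64% higher and 10.9% lower at that threshold. The summed level of the hair germ and bulge list was 6602 to 7533 CPM in wild type and 5687 to 5911 CPM in knockout, and none of its genes was at 0. The gap in this sum depended on Postn: without Postn, wild-type replicate 2 lay inside the knockout range. The mean log2 CPM of the list, which weighs each gene alike, was 6.806 to 6.974 in wild type and 6.648 to 6.745 in knockout. The called gene was Postn, a matrix gene that fibroblasts also express, at -0.76 ± 0.11 (edgeR adjusted p = 0.0154). Postn was at 1671, 1951, 2065 and 1758 CPM in wild type and at 1137, 1088, 1154 and 1006 CPM in knockout. Of the dermal papilla list, 10 genes were above and 6 below 0, with 4 higher and 2 lower at an unadjusted p under 0.05. In the melanin list 3 genes were above and 5 below 0, with 0 higher and 2 lower at an unadjusted p under 0.05. Of the 8, 1 was called, Mlana, a melanocyte gene, at -1.83 ± 0.30 (edgeR adjusted p = 0.0231). The summed level of the list overlapped, at 121.8 to 187.7 CPM in wild type and 109.8 to 195.0 CPM in knockout. Cell cycle genes were above 0 in 14 of 20, with 5 higher and 0 lower at an unadjusted p under 0.05. Their summed level was 360.4 to 405.2 CPM in wild type and 626.1, 393.4, 336.1 and 426.9 CPM in knockout replicates 1 to 4. The part of these cells in the lower Dkk2 and Dkk3 was not tested.

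**Figure D4:**
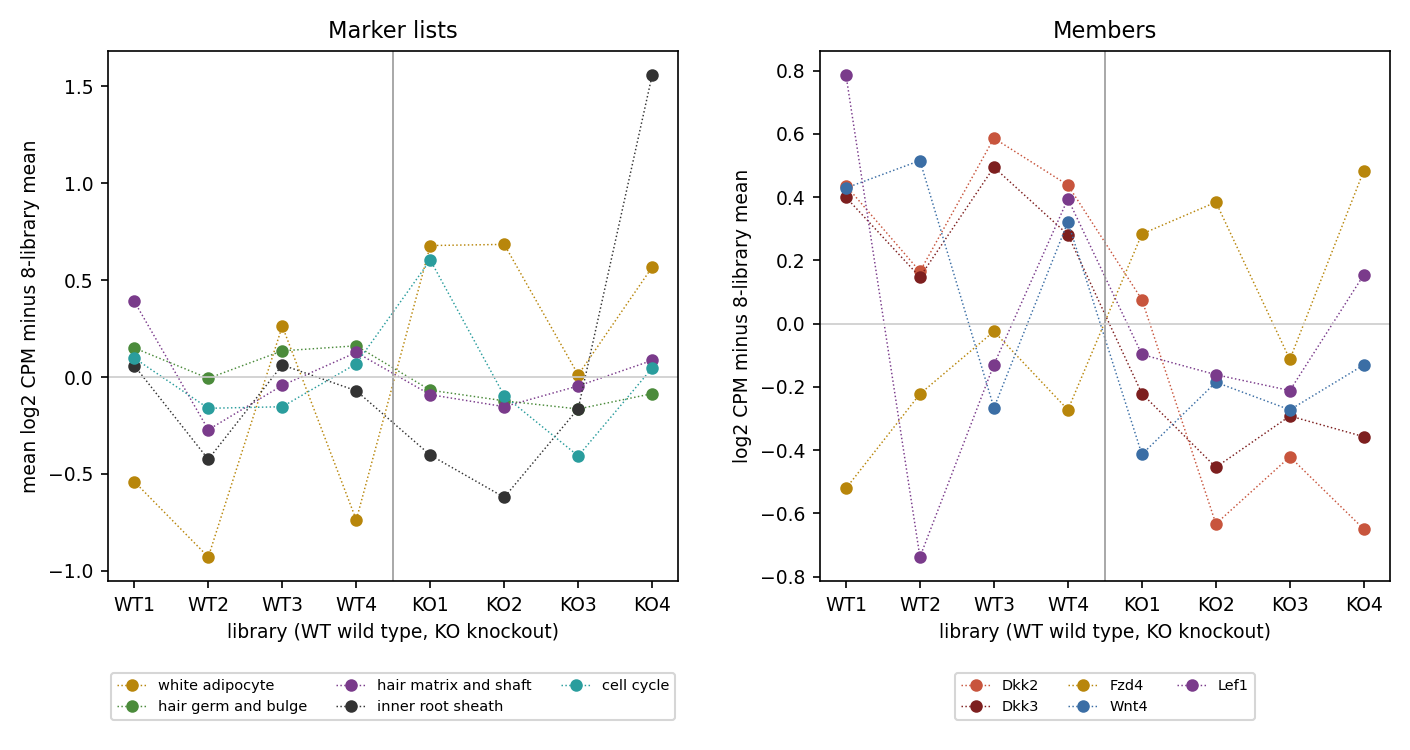
Mean log2 CPM of 5 marker lists (left) and log2 CPM of 5 genes (right) in each library, each minus its mean over the 8 libraries; dotted lines only join points of one series. Wild-type replicate 3 and knockout replicate 3 lie close to each other in the adipocyte list and in Fzd4, while Dkk2 and Dkk3 are highest in wild-type replicate 3.

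Adipocyte genes were mostly above 0. Of the 18 genes of the white adipocyte list 17 were above 0 and 2 called higher, Scd1 and Ghr, with a median of 0.80. At an unadjusted p under 0.05 there were 13 higher and 0 lower, where all genes gave 8.64% higher and 10.9% lower. The summed level of the list was 6705 to 12300 CPM in wild type and 11050 to 17280 CPM in knockout, with none of its genes at 0. In mean log2 CPM, wild-type replicate 3 stood at 8.12 and the other wild-type libraries at 7.32 or less, while knockout replicate 3 stood at 7.87 and the other knockout libraries at 8.43 or more. Fzd4 had the same 2 extremes, being highest of wild type and lowest of knockout there. Between the genotypes the list was higher where Dkk2 and Dkk3 were lower, while within wild type both genes were highest in replicate 3, and the part of fat in their lower level was not tested. With the adipocyte mean in the fit 0 genes of all 19099 were called by edgeR, and Dkk3 was at -0.82 ± 0.13 (adjusted p = 0.107) and Dkk2 at -1.03 ± 0.24 (adjusted p = 0.204).

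Other marker lists were read for the cells that whole skin holds. All genes gave 8.64% higher and 10.9% lower at an unadjusted p under 0.05. The T cell list was below 0 in 9 of 10 genes, with a median of -0.63 and 1 higher and 7 lower at an unadjusted p under 0.05. Its mean log2 CPM was 2.86 to 3.18 in wild type and 2.12 to 2.65 in knockout, while its summed level was 187.0 to 296.8 CPM and 217.4 to 312.3 CPM. Its called gene was Cd2, at -0.82 ± 0.17 (edgeR adjusted p = 0.0483). The keratinocyte list was below 0 in 11 of 13, with a median of -0.12, 0 higher and 2 lower at an unadjusted p under 0.05, and a summed level of 14480 to 15450 CPM in wild type and 12520 to 14850 CPM in knockout. Its called gene was Calml3, at -0.40 ± 0.08 (edgeR adjusted p = 0.0483). In the macrophage and dendritic cell list, with 4 above and 6 below 0, Mrc1 was called higher at 0.58 ± 0.12 (edgeR adjusted p = 0.0483). Cd2, Calml3, Mrc1, Scd1 and Ghr were named after their values were seen.

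At an unadjusted p under 0.05, where all genes gave 8.64% higher and 10.9% lower, the fibroblast list had 2 of 10 genes higher and 0 lower. The sebaceous gland list had 2 of 11 higher and 1 lower, and the endothelium list 0 of 8 higher and 1 lower. The skeletal muscle list had 1 of 10 higher and 1 lower, and the Schwann cell list 0 of 7 higher and 1 lower. Summed levels of these 5 lists overlapped between the genotypes. The part of these cells in the results was not tested.

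**Figure D5:**
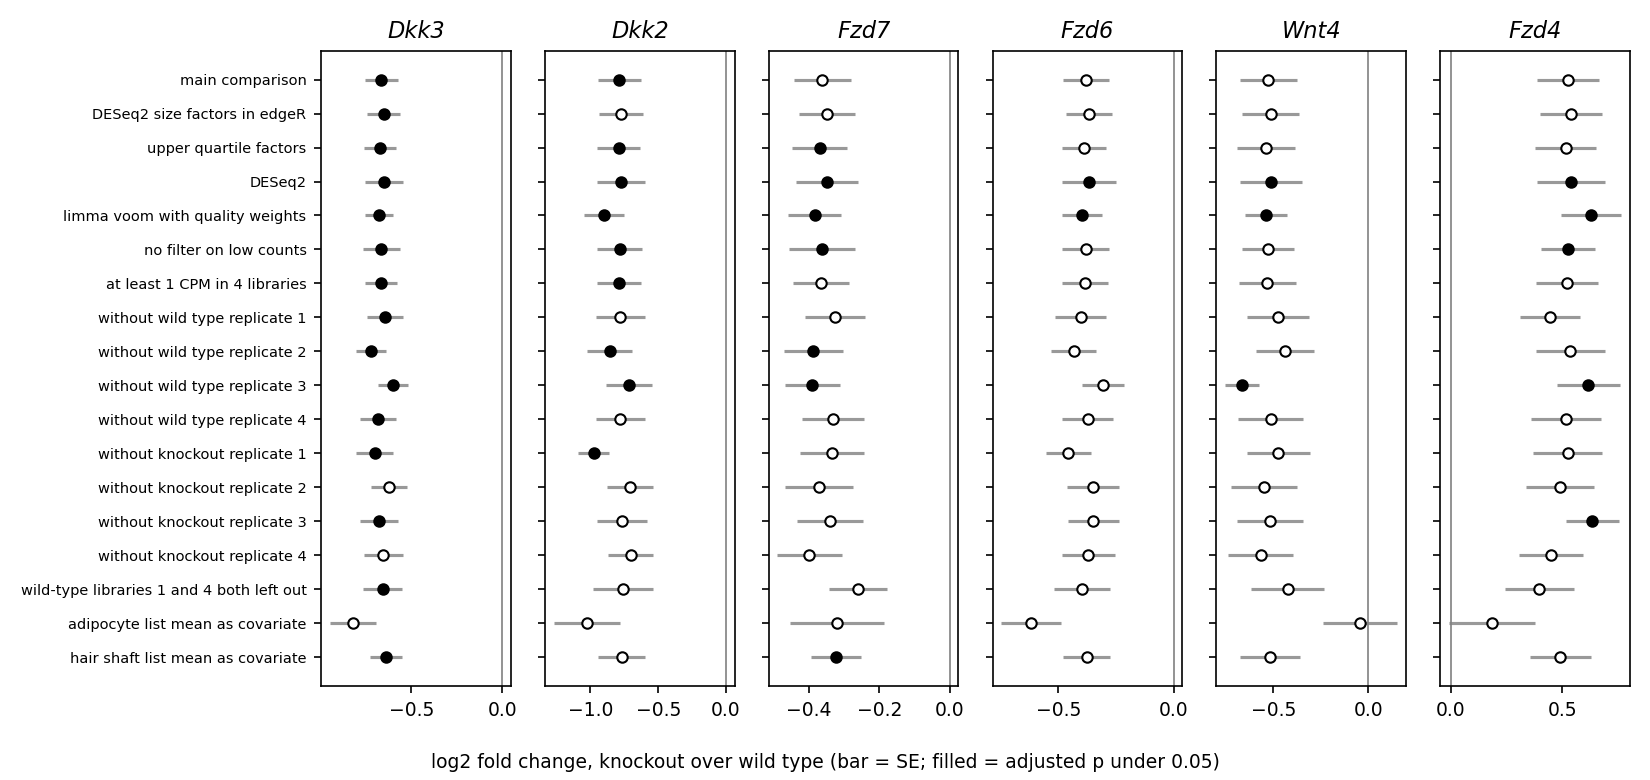
Log2 fold change, knockout over wild type (x axis), of 6 genes under the main comparison and 17 alternatives (y axis), with the SE as a bar and filled points for an adjusted p under 0.05. Dkk3 is filled in 14 of the 17 alternatives and Dkk2 in 8, and no gene of the 6 changes sign.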

How the data were processed

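The authors deposited raw read counts per gene of whole back skin, which were aligned with GSNAP to mm10 and counted with featureCounts 1.6.2, per the submitters' processing notes. The deposited table also gives each gene's length in bases of exons. The series text names a SMART protocol and the sample labels a strand-specific kit; the strand setting is not given in the sources used here. Of 49763 features, 92 spike-ins were left out; 49326 of 49671 gene identifiers had a symbol in GENCODE M21.

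Samples were grouped by the genotype label, and replicates were numbered in sample order. The fit, in edgeR 4.0.16 under R 4.3.3, took the genes that filterByExpr kept and both genotypes (8 libraries, no other term). It used TMM scaling and robust quasi-likelihood dispersions, and p was adjusted by Benjamini-Hochberg over all genes tested. SE was derived from the F statistic. CPM per kb divides CPM by exon length. List means are log2 CPM with a prior count of 2. DESeq2 1.42.0, limma 3.58.1, other scalings and filters, single libraries left out and list means as covariates were the alternatives. The fit was tested on simulated data, where the share of false genes among those called was above the level that the adjusted p threshold sets. Some of the genes simulated with a change were not called there. The members, lists and alternatives were chosen with earlier results of these data known. Named genes were those called, the 4 smallest p and the 4 highest levels per kb in each role, and the 4 smallest p of the other pathway genes. Krt85 was not analysed here.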

Additional observations from a re-analysis of the deposited data

Results flagged for a closer look

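In 4 of 80 groups of 4 libraries examined (40 genes in 2 genotypes), 1 library lay far from the other 3, a number that chance gives in about 1 of 20 groups. Fzd2 was at 31.24 CPM in knockout replicate 3, against 41.7 to 43.6 CPM in the other knockout libraries. Fzd5 was at 17.6 CPM in knockout replicate 1, against 14.55 to 14.77 CPM. Wnt10a was at 14.32 CPM in wild-type replicate 3, against 18.5 to 18.8 CPM, and Wnt3a at 4.803 CPM in the same library, against 5.85 to 6.07 CPM.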

How the results depend on the processing

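Under 17 alternatives Dkk3 and Dkk2 were below 0 in every one. Dkk3 was called in 14 (log2 fold change -0.82 to -0.60) and Dkk2 in 8 (-1.03 to -0.70). The number of genes of the 45 called higher, 0 in the main comparison, was 1 with DESeq2, limma voom or no filter on low counts, and 0 to 1 with single libraries left out; the gene was Fzd4. The number called lower, 2 in the main comparison, was 1 with DESeq2 size factors, 5 with DESeq2, 7 with limma voom, 1 without wild-type libraries 1 and 4, 0 with the adipocyte covariate, and 0 to 4 with single libraries left out, 0 without knockout replicate 2 or 4. Other pathway genes called, 0 in the main comparison, were 4 with DESeq2, 10 with limma voom, 1 without a filter, 1 with the shaft covariate and 0 to 3 with single libraries left out. Growth phase genes called, 0 in the main comparison, were 2 with limma voom and 0 to 1 with single libraries left out. Over all genes, 11 were called without knockout replicate 2 (9 higher, 2 lower) and 15 without knockout replicate 4 (11 and 4). Without wild-type replicate 2 or 3 the share of all genes called was 2.6% and 6.82%, against 1.41% in the main comparison. Of the 40 tested genes, 19 changed the sign of their fitted value under at least 1 alternative, none of them called in any, and 21 did not; 8 were called under at least 1 alternative. The other scalings moved the median of all genes by less than 0.1. No paired analysis was possible because the labels carry no replicate numbers. Group means under about 0.1 CPM, as for Wnt1, Wnt8a, Wnt8b, Dkk1 and Dkk4, lie at or near the limit that the depth allows.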
